A study of Rattus norvegicus with 12 samples.

Results

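The diet by estradiol interaction is the difference between 2 responses: the change that infused estradiol made in the testis of rats fed soy protein isolate, minus the change it made in rats fed casein. It was computed on the log2 scale as (soy estradiol minus soy) minus (casein estradiol minus casein), from all 12 of the 12 arrays of the series. A positive value means that estradiol raised a probe set more, or lowered it less, on soy than on casein. Of 31042 probe sets that are not array controls, 21729 passed a filter on low values and were tested, covering 11777 genes. A probe set is a group of short probes, mostly near the 3′ end of a transcript, and a gene can have several.

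All animals were male Sprague-Dawley rats kept on a casein diet, AIN-93G, through lactation. From postnatal day 21 to 33 they ate either that diet, spelled "caseine" in the labels, or AIN-93G in which soy protein isolate replaced the casein. In each diet 3 samples came from animals with no estradiol and 3 from animals given 17β-estradiol at 10 µg per kg per day under the skin from an osmotic minipump. Testes were taken for RNA on postnatal day 34, and the labels do not say whether a sample was 1 animal or a pool, and they name no pump for the animals without estradiol. The p-values therefore measure the spread between these samples, which may be technical. The 4 groups are called casein, casein estradiol, soy and soy estradiol below, and values are always given for replicates 1, 2 and 3 in that order.

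Estradiol acts through nuclear receptors that bind estrogen response elements in DNA, and it also lowers gonadotrophin secretion, on which Leydig cell androgen synthesis depends. Soy protein brings in isoflavones such as genistein, which also bind these receptors, whereas casein does not. At this age the seminiferous tubules hold Sertoli cells, spermatogonia, spermatocytes and the first spermatids, with Leydig cells and macrophages between the tubules.

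The tissue label was borne out by the defining markers. Mean log2 levels of 12 Leydig cell markers lay between 9.25 and 9.38 in the arrays without estradiol, those of 17 Sertoli cell markers between 8.80 and 8.90, and those of 18 spermatid markers between 12.37 and 12.46. Arrays of 1 group correlated at 0.978 or above across probe sets. The median standard deviation within a group was 0.14 log2 in soy estradiol and 0.077 to 0.085 in the other groups. The casein arrays stood apart in several of the control measures. The rat repeat element control read 8.09 to 8.23 there and 8.63 to 9.08 in the other 9 arrays. A second repeat control, with low values in all arrays, read 4.67 to 4.86 there and 4.91 to 5.05 elsewhere. The difference between the 3′ and 5′ probe sets of hexokinase, a measure of RNA integrity, was 0.42 to 0.53 there and -0.41 to 0.25 elsewhere. The same difference for β-actin and GAPDH overlapped between casein and the other groups. The soy arrays had the narrowest distributions, with an interquartile range of 2.86 to 2.98 log2. The casein arrays had the widest, at 3.17 to 3.21, and the estradiol groups lay between at 3.07 to 3.12.

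**Figure D1:**
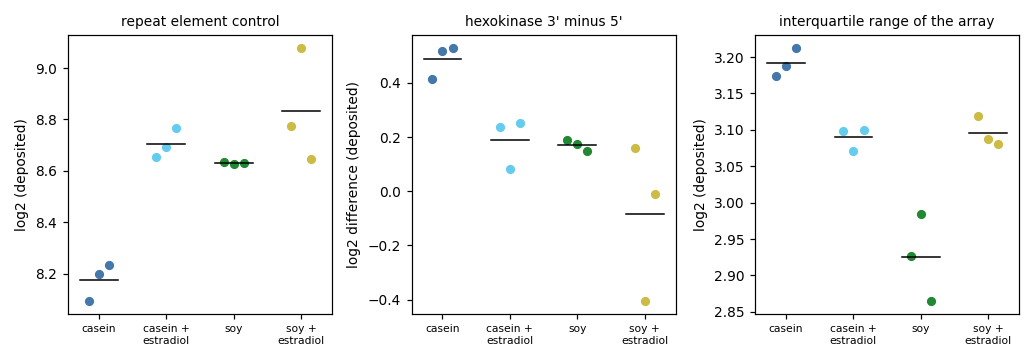
Deposited log2 values of the repeat element control, of the hexokinase 3′ minus 5′ difference and of the interquartile range of all probe sets, 1 point per array by group with bars at the group means. The 3 casein arrays lie below all others for the repeat element control and above all others for hexokinase. The 3 soy arrays have the narrowest range and the 3 casein arrays the widest.

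Across the testis transcriptome 741 probe sets had an interaction at an adjusted p under 0.05, which is 3.41% of those tested, 244 positive and 497 negative (limma, Benjamini-Hochberg). The positive calls were 1.12% and the negative calls 2.29% of those tested. For comparison, 9077 probe sets (41.8%) changed with estradiol on casein, 21.9% upward and 19.9% downward, and 10759 (49.5%) on soy, 25.3% upward and 24.3% downward. The median standard error of an interaction was 0.13 log2, and the median absolute interaction over all probe sets was 0.16. The balance of directions depended on the scaling: 458 of 1018 calls were positive on the deposited values and 733 of 1244 after median centring, against 244 of 741 here. Leaving out 1 array moved the count from 741 to 467, 277 and 157 without casein 1, 2 and 3, to 156, 281 and 263 without casein estradiol 1, 2 and 3, to 173 and 284 without soy 1 and 3, and to 1049 without soy estradiol 3. Every one of the 741 kept its sign in each alternative that tested it. The 741 were picked for their calls in these arrays, which the alternatives reuse, so a kept sign is no independent support.

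The interactions lay mainly in the arrays without estradiol. An interaction is also the soy minus casein difference under estradiol minus that difference without it, and 669 of the 741 called probe sets (90.3%) had the larger diet difference without estradiol, against 56.3% of all tested. Their median absolute diet difference was 0.46 log2 without estradiol and 0.13 under it. Of the 741, 656 also passed the test of soy against casein without estradiol, where 2114 of all probe sets did (9.73%), 6.61% higher and 3.12% lower on soy. Under estradiol 1 probe set of all those tested differed between the diets (0.00460%), while 2784 did at an unadjusted p under 0.05. Without soy estradiol 3 the count at the adjusted threshold was 373, so few calls under estradiol do not show that the diets were alike there. The 4 comparisons share arrays, so these counts describe the same data from different sides.

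**Figure D2:**
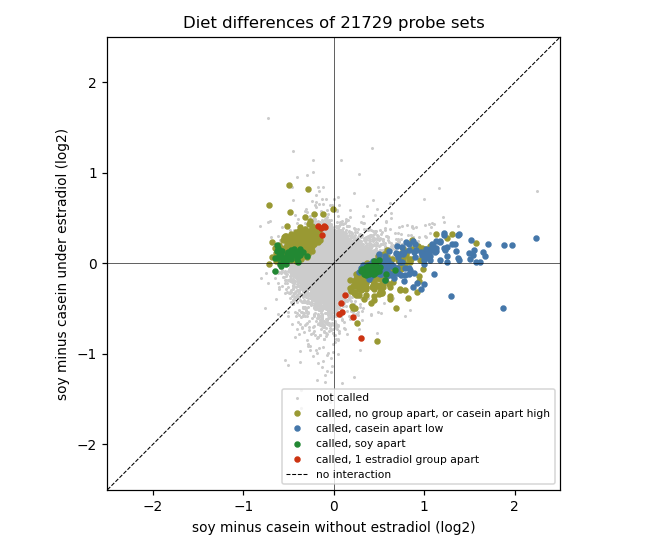
Soy minus casein difference under estradiol (y axis, log2) against the same difference without estradiol (x axis, log2) for each probe set tested, with a dashed line where the interaction is 0. Called probe sets are coloured by the pattern of their 4 groups, and most are spread along the x axis near 0 on the y axis, where 592 of the 741 lie within 0.25 log2.

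To describe where each interaction came from, the 741 probe sets were sorted by the pattern of their groups. A group was taken to stand apart when all 3 of its arrays lay below, or above, the other 9 and the means of the other 3 groups spread over less than 0.5 of the gap to it. Casein stood apart low in 159 probe sets (21.5% of the calls) and high in 9. Soy stood apart high in 42 and low in 43. An estradiol group stood apart in 11. Of the remainder, the estradiol effect was called in opposite directions on the diets in 143, in the same direction but more on casein in 32, in the same direction but more on soy in 29, on soy alone in 182 and on casein alone in 91. These patterns use the values that the test used and carry no test of their own. Without casein estradiol 1 the count low in casein alone was 61 and that of opposite effects 35, the lowest when single arrays were left out.

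The probe sets low in casein alone had a median interaction of -0.69 log2, against a median size of 0.59 over all 741 calls. Their mean over 159 probe sets was 7.41 to 7.50 log2 in the 3 casein arrays, 8.26 to 8.31 in casein estradiol, 8.21 to 8.33 in soy and 8.27 to 8.35 in soy estradiol. The median estradiol effect was 0.77 on casein and -0.00 on soy. The median diet difference was 0.71 without estradiol and -0.01 under it. The readings on casein with estradiol, on soy and on soy with estradiol thus lay close together, and those on casein without estradiol lay below them.

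**Figure D3:**
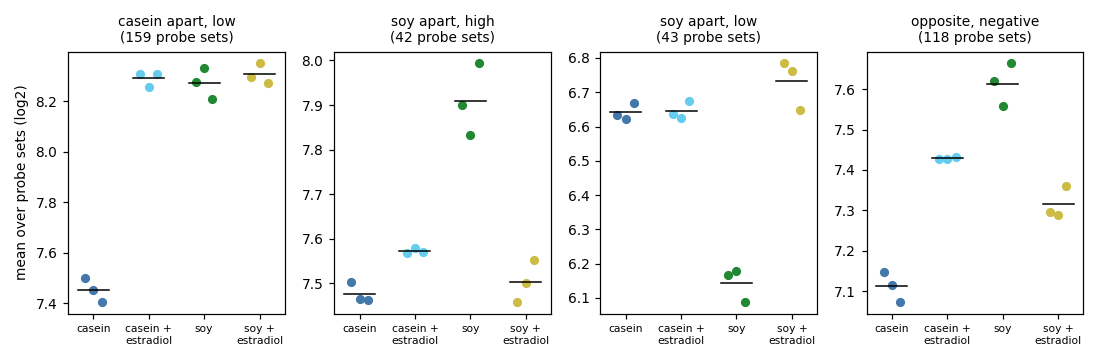
Mean log2 value over the probe sets of 4 patterns in each array, by group, with bars at the group means: casein low (159 probe sets), soy high (42), soy low (43) and opposite estradiol effects with a negative interaction (118). The casein arrays lie at 7.41 to 7.50 in the first panel, below all 9 others.

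Large interactions of this kind were read by a probe set of Ralgapa1, the catalytic subunit of a GTPase-activating complex for Ral proteins. It read 4.99, 4.90 and 5.10 in casein, 7.14, 7.03 and 7.31 in casein estradiol, 7.02, 7.07 and 6.52 in soy, and 7.04, 6.03 and 6.92 in soy estradiol. All casein arrays were below every other array, of which the lowest was 6.03. The interaction was -2.37 (SE 0.31, adjusted p = 0.00467), but the casein mean lay below the filter level of 5.69 log2 and may be near background, so the difference from casein is at most a lower bound. The 4 other probe sets of Ralgapa1 gave interactions of -0.35 to 0.12.

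Eprs1 encodes the tRNA synthetase that charges glutamate and proline. Its probe set read 7.15, 7.10 and 7.06 in casein, 9.50, 9.31 and 9.56 in casein estradiol, 9.29, 9.51 and 9.20 in soy, and 9.66, 10.10 and 9.46 in soy estradiol. The casein arrays did not overlap any other group, while the other 3 groups overlapped each other. The interaction was -1.95 (SE 0.19, adjusted p = 0.000749), with a rise of 2.35 under estradiol on casein and of 0.40 on soy (adjusted p = 0.0288). Its 2 other probe sets gave -0.11 and -0.14.

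The start of Eprs1 is shown for a gene with a large casein-low interaction. It is the 250 bases before the start in RefSeq, at chr13:99433003-99433252 on the plus strand of build GRCr8, written 5′ to 3′, and the capitals mark a half-site of the estrogen response element, TGACC or GGTCA on either strand.
Eprs1: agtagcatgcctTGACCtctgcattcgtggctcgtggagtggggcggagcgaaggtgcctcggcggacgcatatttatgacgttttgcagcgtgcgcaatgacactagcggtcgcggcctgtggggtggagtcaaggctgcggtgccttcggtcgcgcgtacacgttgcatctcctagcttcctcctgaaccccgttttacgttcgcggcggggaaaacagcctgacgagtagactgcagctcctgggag

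Huwe1, a very large ubiquitin ligase, read 5.68, 4.97 and 5.51 in casein, 7.71, 7.65 and 7.72 in casein estradiol, 7.33, 7.56 and 7.17 in soy, and 7.78, 8.20 and 7.71 in soy estradiol. Its casein mean of 5.39 was again below the filter level, and the other 9 arrays read 7.17 or more. The interaction was -1.77 (SE 0.24, adjusted p = 0.0055), against -0.33 and 0.14 in its other probe sets. Pbrm1, a subunit of the PBAF chromatin remodelling complex, read 7.10, 6.83 and 6.74 in casein and 8.36 to 8.93 in the other 9 arrays. Its interaction was -1.58 (SE 0.16, adjusted p = 0.000749), and its 5 other probe sets gave -0.46 to 0.09. Tm9sf3, a multispanning membrane protein, and Lrpprc, which stabilises mitochondrial messenger RNA, had interactions of -1.68 (adjusted p = 0.0107) and -1.65 (adjusted p = 0.0137). The other probe sets of Tm9sf3 went the other way, at 0.29 and 0.21, and those of Lrpprc gave -0.05 and -0.21.

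Usp8, an endosomal deubiquitinase, combined a low casein group with a fall on soy. It read 7.48, 7.28 and 7.18 in casein, 8.52, 8.56 and 8.35 in casein estradiol, 8.96, 9.05 and 8.78 in soy, and 8.29, 8.59 and 8.59 in soy estradiol. Casein was lowest, soy highest, and the estradiol groups overlapped between them. Estradiol raised it by 1.16 on casein and it fell by 0.44 on soy (adjusted p = 0.00624), for an interaction of -1.60 (SE 0.16, adjusted p = 0.000749). Its other probe set gave -0.42 (adjusted p = 0.0521).

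**Figure D4:**
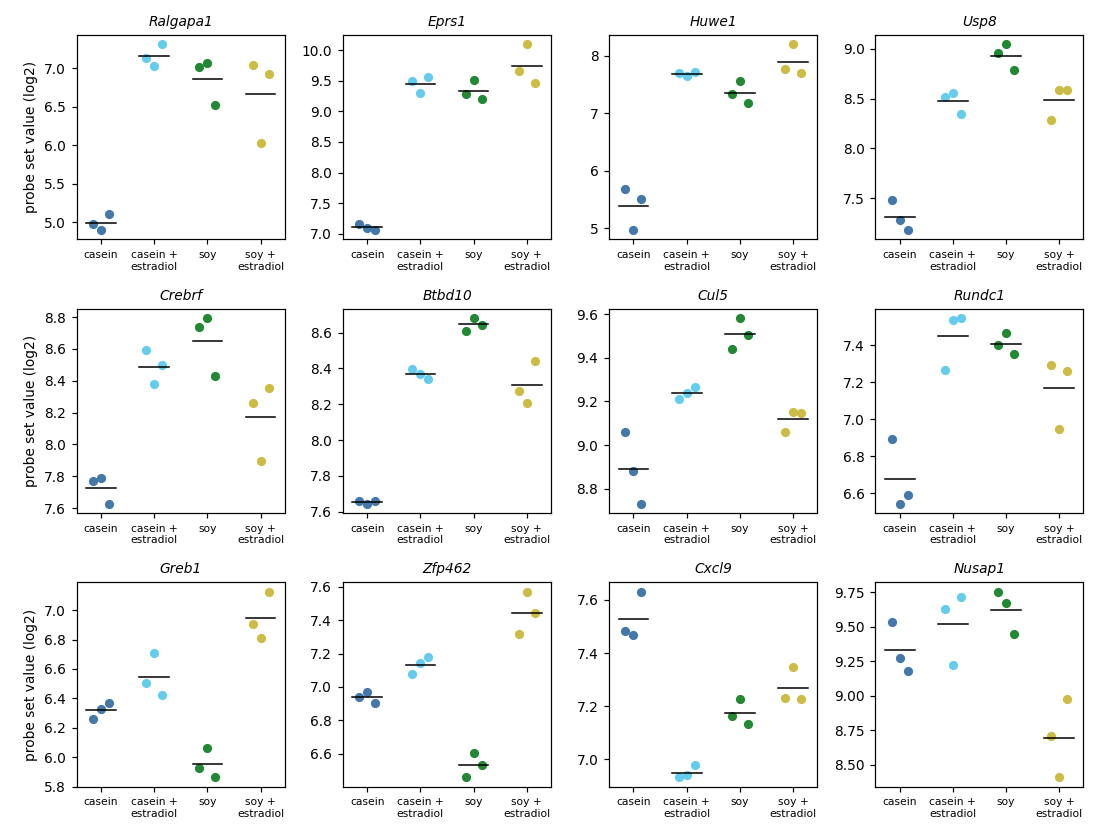
Log2 values of 12 genes in each array (points) with group means (bars), by group. Ralgapa1, Eprs1, Huwe1 and Usp8 are low in casein, Crebrf, Btbd10, Cul5 and Rundc1 move in different ways on the diets, and Greb1, Zfp462, Cxcl9 and Nusap1 show interactions with other patterns.

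Gene length was not used to define the pattern of these 159 probe sets. The genes they read were long: the median genomic span of 109 genes was 60.9 kb, with quartiles of 33.2 and 93.1, against 23.1 kb, with quartiles of 9.64 and 56.1, over all genes tested. The median span was 56.9 kb for genes moved in 1 direction on both diets but more on casein and 49.8 kb for those moved more on soy, against 28.5 kb for opposite effects and 28.4 and 25.2 kb for effects on soy or casein alone. Of 103 such probe sets whose gene had another tested probe set, 12 (11.7%) were the brightest of their gene, against 42.5% of all such probe sets tested and 34.2% of the called ones in which casein did not stand apart. In 14 of the 159 the casein mean lay below the filter level, against 341 of all 21729 tested. Brightness was the mean over all arrays, casein included. The counts of brightest and of low probe sets thus draw on values that define the pattern.

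The other probe sets of the same genes mostly did not carry the interaction, and this held for the other calls too. Counted over pairs, the other probe set had the same sign in 65.3% and was called the same way in 10.7%. For called probe sets in which casein did not stand apart, these shares were 59.6% and 4.19%. Of 181 other probe sets, 14, in 7 genes, were low in casein alone too. Of the 167 others 106 (63.5%) had a negative interaction, against 49.4% of all tested, and 7 (4.19%) were called negative, against 2.29% of all tested. Their median interaction was -0.06. The repeat element control and the hexokinase 3′ minus 5′ difference separate the casein arrays from the others in the same way, by -0.55 and 0.40 in means. The casein arrays were also those with the widest distribution of values. The part of this, of RNA integrity or of probe placement in these interactions was not tested.

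**Figure D5:**
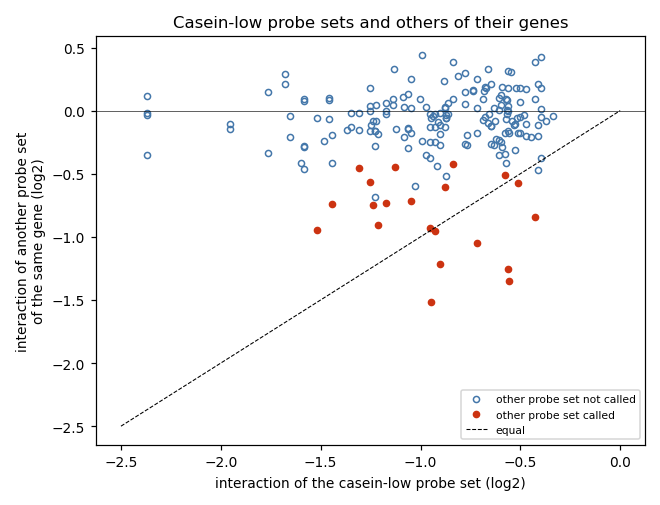
Interaction of another probe set of the same gene (y axis, log2) against that of the probe set low in casein alone (x axis, log2), for 196 pairs, with called ones in red and a dashed line where both are equal. A gene with 2 probe sets low in casein alone gives a pair each way, and most pairs lie near 0 on the y axis, with a median of 0.08 in the direction of the called one.

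A smaller number of genes gave interactions in more than 1 probe set. There were 21 genes with at least 2 called probe sets, 19 of them in 1 direction, and in 4 genes both called probe sets stayed called in all 21 alternative analyses. These were Gbf1, a guanine nucleotide exchange factor of the Golgi, at -1.24 and -0.75, Gpbp1, a promoter-binding protein, at -1.52 and -0.95, Kdm5b, a histone H3 demethylase, at -0.95 and -0.93, and Rbbp6, a ubiquitin ligase, at -1.17 and -0.73. The casein means of Kdm5b were 7.42 and 8.47, and those of the other groups 8.55 to 8.87 and 9.64 to 10.03. Chd4, the remodelling ATPase of the NuRD complex, had -1.21 and -0.90, and its casein means of 8.81 and 7.94 lay below the other groups at 10.16 to 10.41 and 9.04 to 9.35. Eif4g1, the scaffold of the cap-binding complex, had -0.80 and -0.77, and RT1-Ba, an MHC class II chain, -0.66 and -0.65. The probe sets of Fli1 at -0.54 and 0.76, and of Hnrnpa2b1 at 0.68 and -0.76, went in opposite directions and give no single value for those genes. In 14 of the 21 genes a called probe set was low in casein alone. Uncalled probe sets of these genes mostly lay nearer 0. They gave -0.08 for Gbf1, -0.06 for Gpbp1, -0.25 to -0.03 for Kdm5b, -0.03 to 0.06 for Rbbp6 and -0.18 for Chd4. Whether probe sets of 1 gene share probes was not examined.

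Calls differed in how well they held. Of the 741 interactions, 120 stayed called in all 21 alternative analyses, which changed the scaling, the filter, the model or the arrays, 101 were lost in 1 to 5 of them, 187 in 6 to 10 and 333 in 11 or more. Of the 120, 94 were negative and 26 positive, and 59 were low in casein alone. In 54 of them neither untreated group stood apart. In these the diet difference was larger without estradiol in 49, with a median size of 0.54 log2 against 0.23 under estradiol. Genes follow by pattern, among them some whose calls were lost in some alternatives and some with soy apart.

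In 143 probe sets the estradiol effect was called in opposite directions on the diets, 118 of them higher under estradiol on casein and lower on soy. Over those 118 the arrays averaged 7.07 to 7.15 in casein, 7.43 in casein estradiol, 7.56 to 7.66 in soy and 7.29 to 7.36 in soy estradiol. The estradiol groups thus lay close together between a low casein and a high soy group. The diet difference was larger without estradiol in 136 of the 143. Of these interactions 27 stayed called in every alternative analysis.

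Btbd10, a BTB-domain protein, showed the pattern with little spread. It read 7.66, 7.64 and 7.66 in casein, 8.40, 8.37 and 8.34 in casein estradiol, 8.61, 8.68 and 8.64 in soy, and 8.28, 8.21 and 8.44 in soy estradiol. Casein was the lowest and soy the highest group, and the estradiol groups overlapped. Estradiol raised it by 0.71 on casein (adjusted p = 3.39e-05) and it fell by 0.34 on soy (adjusted p = 0.00197), for an interaction of -1.05 (SE 0.10, adjusted p = 0.000749). Its other probe set gave -0.11.

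Crebrf, a regulator of the transcription factor CREB3, read 7.77, 7.79 and 7.63 in casein, 8.59, 8.38 and 8.50 in casein estradiol, 8.74, 8.79 and 8.43 in soy, and 8.26, 7.90 and 8.35 in soy estradiol. Estradiol raised it by 0.76 on casein and it fell by 0.48 on soy, for an interaction of -1.24 (SE 0.18, adjusted p = 0.00604). The estradiol groups did not overlap, casein estradiol being the higher. Dot1l, a histone H3 methyltransferase, read 6.21, 5.89 and 6.20 in casein, 6.71, 6.87 and 6.44 in casein estradiol, 6.88, 7.08 and 6.81 in soy, and 6.23, 6.05 and 6.57 in soy estradiol. Casein overlapped soy estradiol, and casein estradiol overlapped soy. It rose by 0.57 on casein and fell by 0.64 on soy, for an interaction of -1.21 (adjusted p = 0.013). The other probe sets of Crebrf gave 0.05 and -0.05, and that of Dot1l -0.19.

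Cul5, the scaffold of a family of ubiquitin ligases, rose by 0.35 on casein and fell by 0.39 on soy (interaction -0.74, SE 0.12, adjusted p = 0.0099). It read 9.06, 8.88 and 8.73 in casein and 9.44, 9.58 and 9.50 in soy, with the estradiol arrays between 9.06 and 9.27. Cry2, a repressor of the circadian clock and chosen after its values were seen, read 6.81, 6.99 and 6.86 in casein, 7.24, 7.19 and 7.45 in casein estradiol, 7.34, 7.18 and 7.37 in soy, and 6.80, 6.89 and 6.86 in soy estradiol. Its untreated casein arrays overlapped soy estradiol, and casein estradiol overlapped soy, so that soy alone and estradiol alone read higher than neither or both. Its interaction was -0.85 (SE 0.12, adjusted p = 0.00595), and its other probe set gave 0.11. Sanbr had an interaction of -1.01 (adjusted p = 0.013).

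In the reverse direction Coq8a, a kinase-like protein of coenzyme Q synthesis, read 7.17, 7.18 and 7.21 in casein, 6.97, 6.89 and 7.06 in casein estradiol, 6.65, 6.78 and 6.71 in soy, and 7.20, 7.11 and 6.99 in soy estradiol. It fell by 0.21 on casein and rose by 0.39 on soy (interaction 0.60, adjusted p = 0.0149). Hps6, needed to form lysosome-related organelles, did likewise (0.63, adjusted p = 0.0149), though its soy mean of 5.59 lay below the filter level. Fbxw17 had 0.66 (adjusted p = 0.0159), with an adjusted p of 0.0604 when casein estradiol 3 and soy estradiol 1 were left out together.

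A probe set that carries no gene symbol in the platform annotation was the single one to differ between the diets under estradiol and is described here after its values were seen. It read 6.05, 6.14 and 6.19 in casein, 5.77, 6.04 and 5.62 in casein estradiol, 5.51, 5.70 and 5.68 in soy, and 6.72, 6.62 and 6.69 in soy estradiol. The soy estradiol arrays were above all others. It fell by 0.31 under estradiol on casein and rose by 1.04 on soy, for an interaction of 1.36 (SE 0.14, adjusted p = 0.000992) and a diet difference under estradiol of 0.87 (adjusted p = 0.0245). Its soy mean of 5.63 was below the filter level.

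The estradiol effect was called on casein alone in 91 probe sets, which does not show that soy animals lacked it. Cxcl9, a chemokine induced by interferon gamma, read 7.48, 7.47 and 7.63 in casein, 6.93, 6.94 and 6.98 in casein estradiol, 7.16, 7.22 and 7.13 in soy, and 7.23, 7.35 and 7.23 in soy estradiol. It fell by 0.58 on casein (adjusted p = 0.000101), while the effect on soy was 0.09 (adjusted p = 0.259), and the interaction was 0.67 (SE 0.10, adjusted p = 0.00605). Casein was the highest group and casein estradiol the lowest, and neither overlapped another. Its other probe set gave 0.10. The 250 bases before its start, at chr14:16006916-16007165 on the plus strand of GRCr8 in RefSeq, are shown for a gene whose fall was called on casein alone. The half-site of the estrogen response element is in capitals.
Cxcl9: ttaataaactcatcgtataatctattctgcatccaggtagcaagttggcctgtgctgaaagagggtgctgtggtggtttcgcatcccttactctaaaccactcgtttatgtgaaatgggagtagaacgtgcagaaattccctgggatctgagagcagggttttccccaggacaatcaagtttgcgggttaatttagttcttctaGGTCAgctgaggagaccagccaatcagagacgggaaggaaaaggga

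Galm, which interconverts the anomers of galactose, and Slc25a10, the mitochondrial dicarboxylate carrier, had interactions of 0.71 (adjusted p = 0.0137) and 0.64 (adjusted p = 0.00986), with falls of 0.66 and 0.50 on casein.

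Rundc1 had a rise that was called on casein alone. It read 6.89, 6.54 and 6.59 in casein, 7.26, 7.54 and 7.55 in casein estradiol, 7.40, 7.46 and 7.35 in soy, and 7.29, 6.95 and 7.26 in soy estradiol. The rise on casein was 0.77, the effect on soy was -0.24 (adjusted p = 0.108), and the interaction was -1.01 (adjusted p = 0.011). Its other probe sets gave 0.01 and 0.05. Slc6a8, the creatine transporter, had an interaction of -0.76 (adjusted p = 0.011), and Ccnl2, a cyclin of splicing complexes, of -0.60 (adjusted p = 0.0137) from a casein mean of 5.58.

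Where estradiol acted in 1 direction on both diets, it acted more on casein in 32 probe sets. Sf3b1, a core subunit of the U2 spliceosomal particle, read 5.41, 5.47 and 5.47 in casein, 7.99, 7.72 and 7.85 in casein estradiol, 6.94, 7.46 and 6.67 in soy, and 8.05, 8.31 and 7.86 in soy estradiol. It rose by 2.40 on casein and 1.05 on soy (interaction -1.35, adjusted p = 0.0149), and its casein mean of 5.45 lay below the filter level, so the first is at most a lower bound. The other probe sets of Sf3b1 gave -0.56, a call lost in 10 alternatives, and -0.18. Ash1l, a histone H3 methyltransferase, read 7.24, 7.39 and 7.27 in casein, 8.81, 8.50 and 8.85 in casein estradiol, 8.24, 8.33 and 8.15 in soy, and 8.65, 8.39 and 8.52 in soy estradiol. It rose by 1.42 on casein and 0.28 on soy (interaction -1.14, adjusted p = 0.0042), and its other probe sets gave 0.33, -0.43 and -0.07. Casein was again the lowest group of both genes, with no overlap. Pnisr, which is linked to splicing, had -0.70 (adjusted p = 0.0157), which rose to 0.0508 without casein 3 and 0.0504 without casein estradiol 1.

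Falls that were larger on casein were seen for Wdfy4, which takes part in antigen cross-presentation by dendritic cells. It read 7.10, 6.86 and 7.22 in casein, 6.05, 6.08 and 5.94 in casein estradiol, 6.52, 6.39 and 6.50 in soy, and 6.17, 6.26 and 6.16 in soy estradiol. It fell by 1.03 on casein and by 0.27 on soy (interaction 0.76, adjusted p = 0.0118). Ndufv3, a subunit of respiratory complex I, fell by 1.02 and 0.27 (interaction 0.75, adjusted p = 0.0117). Nat8f5 had 0.66 (adjusted p = 0.0202), but its adjusted p was 0.052 without casein 2, 0.064 without casein estradiol 1 and 0.0589 without casein estradiol 3 and soy estradiol 1.

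Estradiol acted more on soy in 29 probe sets, all of them rises. Mex3a, an RNA-binding protein, read 5.53, 5.81 and 5.76 in casein, 6.27, 6.23 and 6.38 in casein estradiol, 5.54, 5.44 and 5.46 in soy, and 6.76, 7.02 and 6.75 in soy estradiol. It rose by 0.59 on casein and 1.36 on soy (interaction 0.77, adjusted p = 0.0149), and the casein and soy groups overlapped. Bclaf3 rose by 0.45 and 1.06 (interaction 0.61, adjusted p = 0.011), from 6.20, 6.16 and 6.11 in casein and 5.67, 5.75 and 5.64 in soy. Tle1, a transcriptional corepressor, had 0.56 (adjusted p = 0.0227) and was not called in 5 alternatives, with an adjusted p of 0.0655 without casein 3, 0.067 and 0.0528 without casein estradiol 1 or 2, and 0.0647 and 0.0532 without soy 1 or 3. Myh6, the alpha heavy chain of cardiac myosin, read 6.27, 6.48 and 6.51 in casein, 7.88, 8.26 and 7.92 in casein estradiol, 6.34, 6.07 and 6.06 in soy, and 8.56, 8.50 and 8.41 in soy estradiol. It rose by 1.60 on casein and 2.34 on soy, with an interaction of 0.74 (adjusted p = 0.0334) that was not called in 8 of 21 alternatives. The striated muscle list, of 14 measured markers with 4 below the filter level in every group, averaged 6.64 to 6.71 in soy estradiol and 6.68 to 6.78 in casein, against 6.44 to 7.30 in casein estradiol. The part of other tissue in the Myh6 value was not tested.

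The largest pattern, with 182 probe sets, was an estradiol effect called on soy alone, which does not show that casein animals lacked it. Zfp462, a zinc finger protein of chromatin, read 6.94, 6.97 and 6.91 in casein, 7.08, 7.14 and 7.18 in casein estradiol, 6.46, 6.61 and 6.53 in soy, and 7.32, 7.57 and 7.45 in soy estradiol. No groups overlapped, with soy lowest and soy estradiol highest. It rose by 0.91 on soy, against 0.20 on casein (adjusted p = 0.0508), and the interaction was 0.72 (SE 0.11, adjusted p = 0.00682). Its other probe set gave 0.01.

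Gtf2e1, a subunit of the general transcription factor TFIIE, read 5.59, 5.72 and 5.74 in casein, 5.85, 5.89 and 5.68 in casein estradiol, 5.17, 5.31 and 5.04 in soy, and 6.22, 6.40 and 6.04 in soy estradiol. Its interaction was 0.92 (adjusted p = 0.00961), with a soy mean of 5.17 below the filter level. Tsr2, a chaperone of ribosome assembly, read 6.54, 6.48 and 6.67, then 6.69, 6.64 and 6.83, then 5.95, 6.20 and 5.96, and 7.14, 7.05 and 6.86 in the same order of groups. Soy was lowest and soy estradiol highest in both genes, without overlap. The interaction of Tsr2 was 0.83 (adjusted p = 0.011), and that of the zinc finger gene Tshz1 was 0.74 (adjusted p = 0.0107).

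Falls on soy alone included Pik3r3, a regulatory subunit of phosphoinositide 3-kinase. It read 7.83, 7.84 and 7.81 in casein, 7.79, 7.71 and 7.68 in casein estradiol, 8.11, 8.04 and 8.02 in soy, and 7.43, 7.30 and 7.48 in soy estradiol. It fell by 0.65 on soy, with -0.10 on casein (adjusted p = 0.247) and an interaction of -0.55 (adjusted p = 0.0131). Soy was highest and soy estradiol lowest, without overlap. Mon1b, of endosomal trafficking, had -0.60 (adjusted p = 0.0131). Btc, a ligand of the EGF receptor, had -0.59 (adjusted p = 0.0182), with an adjusted p of 0.0533 without casein 3, 0.0511 without soy 1 and 0.0668 without casein estradiol 3 and soy estradiol 1.

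Greb1, a gene induced by the estrogen receptor in many tissues, was the estrogen target with a called interaction. It read 6.26, 6.33 and 6.37 in casein, 6.50, 6.71 and 6.42 in casein estradiol, 5.92, 6.06 and 5.86 in soy, and 6.91, 6.81 and 7.12 in soy estradiol. All 4 groups were separate, soy lowest and soy estradiol highest, so that the rise of 1.00 on soy started below the casein arrays and ended above them. The effect on casein was 0.23 (adjusted p = 0.08), and the diet difference was -0.37 without estradiol (adjusted p = 0.0326) and 0.40 under it (adjusted p = 0.204). The interaction was 0.77 (SE 0.14, adjusted p = 0.0159), with an adjusted p of 0.0508 without casein 3, 0.0504 without casein estradiol 1 and 0.0505 without casein estradiol 3 and soy estradiol 1. Its other probe set gave -0.19.

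Soy stood apart in 85 called probe sets, of which 6 stayed called in every alternative. Mllt10, a cofactor of Dot1l, was highest in soy, where it read 8.87, 8.93 and 8.80, against 8.18, 8.22 and 8.17 in casein, 8.41, 8.48 and 8.35 in casein estradiol, and 8.22, 8.28 and 8.51 in soy estradiol. It fell by 0.53 under estradiol on soy (interaction -0.75, adjusted p = 0.00828), and its other probe sets gave -0.38, 0.06 and -0.67. Ap5z1, a subunit of the AP-5 adaptor, was lowest in soy at 5.48, 5.57 and 5.47, against 5.94 to 6.09 in the other 9 arrays (interaction 0.58, adjusted p = 0.00912), while its other probe sets gave -0.37, -0.17 and -0.30. Slc25a13, the mitochondrial aspartate-glutamate carrier, and Atp11a, a phospholipid flippase, were lowest in soy too, with 0.64 (adjusted p = 0.0131) and 0.60 (adjusted p = 0.0126), and their other probe sets gave -0.27 and -0.23. The soy arrays are also those with the narrowest distribution of values, and the part of this in the soy patterns was not tested. Without quantile normalization, soy stood apart in 62 called probe sets on deposited values and in 109 after median centring.

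An estradiol group stood apart in 11 called probe sets, and none of these stayed called in all alternatives. Nusap1, which bundles microtubules of the mitotic spindle, read 9.53, 9.27 and 9.18 in casein, 9.63, 9.22 and 9.71 in casein estradiol, 9.75, 9.67 and 9.45 in soy, and 8.71, 8.41 and 8.98 in soy estradiol. The soy estradiol arrays were below all others. It fell by 0.93 on soy, with 0.19 on casein (adjusted p = 0.349), for an interaction of -1.12 (SE 0.22, adjusted p = 0.0251). That call was lost in 6 alternatives: the adjusted p was 0.0596 and 0.0752 without casein 2 or 3, 0.0755 and 0.0592 without casein estradiol 1 or 3, 0.0722 without soy 1, and 0.0666 without casein estradiol 3 and soy estradiol 1. Efhd1, a mitochondrial calcium-binding protein, had -0.63 (adjusted p = 0.0249) and Tspyl4 -0.80 (adjusted p = 0.0368), both lowest in soy estradiol. Id2, an inhibitor of helix-loop-helix factors, and Wrn, a RecQ helicase, were highest there, with 0.51 (adjusted p = 0.0392) and 0.58 (adjusted p = 0.0412). Sult1a1, a phenol sulfotransferase, was lowest in casein estradiol at 8.78, 8.76 and 8.63, against 8.91 to 9.29 in the other arrays (0.50, adjusted p = 0.0412). Calls of these 5 genes were lost in 5 to 15 of the alternatives.

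Among the genes of the testis itself, lists of markers held almost no called interactions. Each gene was read by its brightest probe set, for which 258 of 11777 genes (2.19%) were called, 107 positive (0.909%) and 151 negative (1.28%), with a median interaction of 0.02. Of 12 Leydig cell, 16 Sertoli cell and 17 spermatid markers none was called, with median interactions of 0.05, 0.10 and 0.13. Neither were any of 9 spermatogonial, 7 early meiotic, 9 pachytene, 6 peritubular myoid, 6 endothelial, 13 steroidogenesis and 17 cholesterol synthesis genes, with medians between -0.10 and 0.09. At the 2.19% of all genes, lists this short would hold few calls or none. The lack of calls thus does not set these markers apart from other genes. In whole testis a change in cell number and a change in RNA per cell cannot be told apart.

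No interaction was called among the genes of hormone production. Insl3, made by Leydig cells to guide descent of the testis, fell by 1.61 on casein and fell by 1.74 on soy, and the interaction was -0.13 with a 95% confidence interval of -0.40 to 0.15. Hsd17b3, which makes testosterone from androstenedione, gave 0.15 (-0.12 to 0.42), and Star, which carries cholesterol into mitochondria, -0.07 (-0.59 to 0.45). The steroid-synthesis enzymes Cyp11a1, Cyp17a1 and Hsd3b1 gave -0.11 (-0.62 to 0.41), -0.29 (-0.82 to 0.24) and 0.07 (-0.38 to 0.51). A p that misses the threshold does not show that the responses were alike.

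In Sertoli cells Amh, the anti-Müllerian hormone, had an interaction of 0.43 (95% confidence interval 0.11 to 0.76, adjusted p = 0.129), and was called without soy estradiol 3 (adjusted p = 0.0484). It read 7.04, 7.13 and 6.87 in casein, 7.37, 7.15 and 7.28 in casein estradiol, 6.65, 6.80 and 6.86 in soy, and 7.50, 7.64 and 7.25 in soy estradiol, so the estradiol groups overlapped. The inhibin subunits Inha and Inhbb gave 0.00 (-0.44 to 0.44) and 0.23 (-0.04 to 0.49), the latter called with array weights (adjusted p = 0.0279). Ctsl, a lysosomal protease, gave 0.23 (-0.17 to 0.63). The glucocorticoid receptor gene Nr3c1 gave 0.28 (0.01 to 0.56, adjusted p = 0.216).

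Ces1d, a carboxylesterase, fell by 2.52 on casein and fell by 3.33 on soy, with an interaction of -0.81 (-1.58 to -0.04, adjusted p = 0.215). In soy estradiol 3 it read 8.36, against 7.48 and 7.16, and without it the adjusted p was 0.0316. Of the spermatid genes, the protamine Prm2 gave 0.43 (-0.46 to 1.33) and the transition protein Tnp2 0.32 (-0.26 to 0.89). The spermatid list of 18 measured markers varied more between estradiol arrays than between untreated ones, from 11.26 to 11.87 in casein estradiol and from 11.48 to 11.97 in soy estradiol, against 12.37 to 12.46 without estradiol.

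The macrophage and leukocyte list leaned in 1 direction without passing gene by gene. Of 12 tested markers 11 had an interaction above 0, against 53.9% of all genes tested, with a median of 0.34, and 1 was called. Estradiol lowered 7 of the 12 on casein and 2 on soy, against 23.9% and 27.0% of all genes. The mean over the 14 measured markers was 7.34 to 7.53 in casein, 6.97 to 7.06 in casein estradiol, 7.20 to 7.28 in soy and 7.05 to 7.22 in soy estradiol. Casein was the highest group without overlap, and the estradiol groups overlapped at the bottom. The called marker was Tyrobp, an adaptor of myeloid receptors, at 6.61, 6.46 and 6.84 in casein, 6.07, 6.23 and 6.15 in casein estradiol, 6.17, 6.33 and 6.16 in soy, and 6.32, 6.54 and 6.18 in soy estradiol. Its interaction of 0.62 (adjusted p = 0.0493) was lost in 15 of 20 alternatives.

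Immune genes outside that list are given beside it. Antigen presentation genes had a median of 0.34, with 10 of 13 above 0 and 1 called, negative. The class II invariant chain Cd74 had an interaction of 1.15 (adjusted p = 0.12) and the class II chain RT1-Da of 0.92 (adjusted p = 0.119), with estradiol effects on soy of 1.16 and 0.76 that passed their own test. Psmb9, a subunit of the immunoproteasome, fell by 0.69 on casein, with -0.07 on soy and an interaction of 0.63 (adjusted p = 0.0554). The called one was RT1-Ba at -0.66 (adjusted p = 0.0244), in the direction opposite to those values. That call was lost in 5 of 21 alternatives, and the call of its other probe set in 12. Casp1, the protease that activates interleukin-1β and chosen after its values were seen, was highest in casein at 6.43, 6.34 and 6.55, against 5.25 to 5.81 in the other arrays (0.70, adjusted p = 0.0317, lost in 7 of 20 alternatives). Cell number and RNA per cell in these leukocytes were not measured apart.

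Other pathways held few calls by the brightest probe set, by which 2.19% of all genes were called. Of 9 estrogen receptors and targets Greb1 alone was called, and the median was -0.03. Nrip1, a corepressor induced by estrogen, rose by 0.60 on casein and 0.93 on soy, with an interaction of 0.33 (adjusted p = 0.182), and Igfbp4, which binds insulin-like growth factors, had -0.36 (adjusted p = 0.0674). Ccnd1, Cxcl12, Stc2, Xbp1 and Ctsd gave -0.03, 0.11, -0.21, -0.33 and -0.19, and Trh gave 0.24. Of 10 genes of arginine synthesis and use Nos2, the inducible nitric oxide synthase, was called at -0.55 (adjusted p = 0.0239), a call lost in 7 of 21 alternatives. Of 7 glucocorticoid response genes Sgk1, a kinase, was called at 0.58 (adjusted p = 0.0363), and of 20 cell cycle genes Mcm4, of the replicative helicase, at 0.61 (adjusted p = 0.0334). These calls were lost in 11 of 21 and 9 of 20 alternatives. No gene of 14 circadian, 9 heat shock, 10 immediate early, 7 interferon, 7 estrogen and xenobiotic metabolism, 19 extracellular matrix or 28 splicing genes was called.

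The lists of chromatin and ubiquitin genes looked different when any probe set counted. By that count 486 of 11777 genes (4.13%) were called, and 6 of 23 chromatin remodellers and 5 of 20 ubiquitin ligases and proteases were, all negative. Of these, Chd4, Smarcc2 and Pbrm1 and the ubiquitin genes Usp8, Huwe1 and Nedd4 were low in casein alone. By the brightest probe set 1 of each list was, Smarca2, an ATPase of SWI/SNF complexes, at -0.38 (adjusted p = 0.039) and Cul5. The Smarca2 call was lost in 13 of 21 alternatives, with -0.24 on deposited values (adjusted p = 0.128) and -0.21 after median centring (adjusted p = 0.171). Of 28 splicing genes 2 were called by any probe set, Sf3b1 and Prpf4b. A gene with more tested probe sets is called more readily when any of them counts, and the lists were not matched for this. The lists were also put together knowing earlier results of these arrays, so their counts are no independent evidence. The adipose list held 7 tested genes, none called. Its 10 measured genes averaged 6.04 to 6.18 in casein, 6.20 to 7.15 in casein estradiol, 6.14 to 7.39 in soy and 6.60 to 7.33 in soy estradiol. The 1 tested gene of the epididymis list, Adam7, had an interaction of 0.86 (adjusted p = 0.642).

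The promoters of called genes were searched for the estrogen response element, to set the sequences beside the values. The full element was read as GGTCA followed, after any 3 bases, by TGACC, and its half-site as TGACC or GGTCA, each on both strands, in RefSeq windows from 250 bases before to 50 bases after the start, build GRCr8. The full element was in 9 of 33469 windows (0.0269%) and in 0 of 464 windows of 413 called genes that matched the table. The half-site, which any full element also holds, was in 40.5% of all windows, 38.0% of windows of genes tested and 33.0% of those of called genes. It was in 28.7% of the windows of genes low in casein alone, 35.6% of those with opposite effects and 37.1% of those with effects on soy alone. A match is a description of letters, and a window without one says nothing of the receptor. The upstream windows of Eprs1 and Cxcl9 shown above each hold 1 half-site.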

How the data were processed

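RNA of 12 testis samples was hybridised to Affymetrix rat arrays, 4 groups of 3. The deposited values are log2 probe set intensities, a scale read from the values. They were made with GCOS, per the submitters' processing notes, with background correction and normalization not given in the sources used here. Lower quartiles, medians and upper quartiles of the arrays differed by up to 0.164, 0.069 and 0.183 log2, so quantile normalization was applied, as the limit was 0.15. The 57 control probe sets and the 30% with the lowest means, below 5.69 log2, were left out. Background was not measured.

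All groups entered 1 model in limma 3.58.1 under R 4.3.3 (eBayes with a trend, 8 residual degrees of freedom), with Benjamini-Hochberg adjustment over 21729 probe sets and calls at an adjusted p under 0.05. An exact two-sided test of 3 against 3 cannot go below p = 0.1. The number of arrays limits the precision. Simulated data had independent noise with 1 spread per probe set for all groups, and differences were added in soy estradiol alone. There the interaction test found 32% of 100 spiked differences of 0.5 log2 and 86% of 100 of 1 log2, and 2 of its 120 calls were false. The real groups differed in spread, and most real calls lay in the arrays without estradiol, so these shares do not carry over to them.

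Gene symbols came from the platform annotation: 20832 probe sets had 1 symbol, 436 several and 9831 none, and 20764 were matched by Entrez ID to RefSeq. Named genes were, in each pattern and direction, those with the largest interactions among the calls kept in every alternative. At most 8 were taken for casein apart and 4 otherwise, or the 3 with the smallest p where fewer than 3 were kept. The called members of gene lists with the smallest p and 17 fixed genes were added, and the text was shortened from the end. Members and lists were chosen with earlier results of these data known. Same-numbered arrays were not taken as pairs: of 18 pairs of deviations from group means, with correlations of -0.36 to 0.35, 4 were above 0.1, and 4 of 12 arrays correlated best with their own number. Alternatives were the scaling, the filter, the trend, array weights, a replicate block, a stricter threshold, other limits for a group apart, and leaving out arrays.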

Additional observations from a re-analysis of the deposited data

Results flagged for a closer look

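By the test of the difference itself, the estradiol effect differed between the diets for at least 1 probe set of each gene below, and 1 is given. Other probe sets of a gene often did not show it, and some calls were lost in most alternatives (15 of 20 for Tyrobp and Wrn, 14 of 21 for Tspyl4). A second called probe set gave -0.95 for Gpbp1, -0.56 for Sf3b1, -0.65 for RT1-Ba and 0.76 for Fli1. The values are gathered here on the log2 scale as the effect on soy minus that on casein (limma, adjusted p under 0.05 for each). Low in casein alone, Ralgapa1 had -2.37, Eprs1 -1.95, Huwe1 -1.77, Tm9sf3 -1.68, Lrpprc -1.65, Usp8 -1.60, Pbrm1 -1.58 and Gpbp1 -1.52. Casp1, high in casein alone, had 0.70. Estradiol effects were opposite for Crebrf at -1.24, Dot1l at -1.21, Btbd10 at -1.05, Sanbr at -1.01, Cry2 at -0.85 and Cul5 at -0.74, and, in the reverse direction, for the probe set with no symbol at 1.36, Fbxw17 at 0.66, Hps6 at 0.63 and Coq8a at 0.60.

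Estradiol had an effect called on casein alone for Rundc1 (-1.01), Slc6a8 (-0.76), Ccnl2 (-0.60), Galm (0.71), Cxcl9 (0.67), Slc25a10 (0.64) and Tyrobp (0.62). It moved both diets in 1 direction, but casein more, for Sf3b1 (-1.35), Ash1l (-1.14), Pnisr (-0.70), Wdfy4 (0.76), Ndufv3 (0.75) and Nat8f5 (0.66). It moved soy more for Mex3a (0.77), Myh6 (0.74), Mcm4 (0.61), Bclaf3 (0.61) and Tle1 (0.56).

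Where the effect was called on soy alone, the interactions were 0.92 for Gtf2e1, 0.83 for Tsr2, 0.77 for Greb1, 0.74 for Tshz1, 0.72 for Zfp462, 0.58 for Sgk1, -0.66 for RT1-Ba, -0.60 for Mon1b, -0.59 for Btc and -0.55 for Pik3r3. With soy apart, Mllt10 had -0.75, Thsd7a -0.55, Nos2 -0.55, 1 of 2 opposed probe sets of Fli1 -0.54, Smarca2 -0.38, Slc25a13 0.64, Atp11a 0.60 and Ap5z1 0.58. With an estradiol group apart, Nusap1 had -1.12, Tspyl4 -0.80, Efhd1 -0.63, Wrn 0.58, Id2 0.51 and Sult1a1 0.50.

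Outside the genes tested, control probe sets separated the casein arrays from the rest: casein minus the mean of the other groups was -0.55 log2 for the repeat element control and 0.40 log2 for the hexokinase 3′ minus 5′ difference.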

How the results depend on the processing

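With 3 arrays a group, the depth of an array cannot be stated as a count, and group means below 5.69 log2 may be near background. Over the genes named, 1404 of 1565 recomputed interactions kept their side of the threshold, 158 lost the call and 3 gained one. None of the 61 called ones turned sign in these, while 4 of the 15 that were not called, those of Cyp11a1, Hsd3b1, Inha and Star, did so in 25 recomputations in all. The 61 were called in the arrays that the recomputations reuse, so their kept sign is no independent support. The estradiol effects on each diet kept their counts within 1.5 times of 9077 and 10759 in every alternative, with 6222 to 10449 on casein and 8308 to 11266 on soy when 1 array was left out. The causes of the changes below were not tested.

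Scaling moved the counts and the median interaction, the latter up by 0.058 log2 on deposited values and 0.085 after median centring. Interactions numbered 741 after quantile normalization and 1244 after median centring (733 positive and 511 negative). Soy minus casein differences without estradiol numbered 2114, against 3934 on deposited values and 4566 after median centring, with 1437, 1948 and 1676 of them higher on soy. At an adjusted p under 0.01 there were 71 interactions, 7 positive and 64 negative.

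With the lowest 50% of probe sets left out, 434 interactions, 1236 diet differences without estradiol and 0 under it were called, with soy apart in 46, an estradiol group apart in 7 and opposite effects in 94. With the replicate number as a block, 393 interactions, 379 of them among the 741, and 0 diet differences under estradiol were called, against 1 without the block. Soy stood apart in 33 and an estradiol group in 4 under that block, while 111 probe sets were low in casein alone and 96 had opposite effects. With array weights the counts were 3318 interactions, 5171 diet differences without estradiol and 499 under it, with casein apart low in 328, soy apart in 305, an estradiol group apart in 123 and opposite effects in 366.

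Without casein estradiol 2 and soy estradiol 1 together, 707 diet differences under estradiol were called, with soy apart in 34 and an estradiol group apart in 89. Without casein estradiol 3 and soy estradiol 1 there were 247 interactions and 0 diet differences under estradiol, with casein apart low in 84, soy apart in 10, an estradiol group apart in 3 and opposite effects in 50. When the other means had to lie within 0.25 of the gap, casein was apart low in 61, soy apart in 22 and an estradiol group apart in 1. Within 1 gap these were 254, 215 and 29, with 88 opposite effects.

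Leaving out 1 array gave 156 to 1049 interactions, 1000 to 2819 diet differences without estradiol and 0 to 373 under it. Casein was then apart low in 61 to 175, soy apart in 11 to 149, an estradiol group apart in 0 to 47 and opposite effects were seen in 35 to 163. The lowest count of interactions came without casein estradiol 1 and the highest without soy estradiol 3. No spermatid marker was among the 373 diet differences called without soy estradiol 3.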
